A study of Mus musculus with 4 samples.

Results

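Open chromatin was described at 7 genes for receptors that guide T cells into tissue, Cxcr3, Cxcr4, Ccr4, Ccr6, Ccr8, Ccr10 and Gpr15, out of 21884 genes counted in the same way. The genes were taken as a list of homing receptors. For each of them the unique ATAC fragments with an end in the gene span or within 5 kb of it were counted in every cell type label of both libraries, and scaled to 1000000 fragments of that label (fragments per 1000000, FPM). All 7 genes passed the minimum of 50 fragments in each library, which 17352 genes met. Percentages of all genes are of these 17352 unless another number is given.

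The T cells came from sorted suspensions of AKP colorectal tumors and of tumor-free cecal tissue beside them, 4 weeks after organoids that lack Apc and Trp53, among other changes, were injected under the serosa of the mouse cecum. Nuclei were read with a single-cell multiome assay, and the authors clustered the nuclear RNA and carried the labels over to the ATAC data. The study compared regulatory T (Treg) cell subsets of tumor and cecum, named IL10+ Treg and IL10- Treg in the annotation. The genotype, age and number of the mice behind each library are not given in the sources used here, and the organoids are 1 line.

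Each tissue had 1 ATAC library, so a difference between tumor and cecum could not be set against replicates, and the text holds no test and no p-value. Intervals are exact 95% intervals that cover counting error only, and cells are not replicates. Those printed for a mean over cells are an exception, since they keep the width of the pooled counts and are approximate. The cecum library gave 43980981 fragments in 7155 labelled cells and the tumor library 62118519 in 8466, with medians of 4374 and 5846 fragments per cell. The libraries shared 84 labelled barcode sequences, 1.17% of the cecum cells and 0.992% of the tumor cells. Of the 17 labels, PD1+ CD4 held only 14 cecum cells against 616 tumor cells, and the other 16 labels held at least 50 cells in each library. Against their defining genes the labels held up in part. Foxp3 led in IL10+ Treg, Gata3 in Th2, Cxcr5 in Tfh-like, Ccr7 in CCR7+ CD4, Trdc in Cytotoxic gdT and Il10 in IL10+ Treg in both libraries, whereas Pdcd1, which encodes PD-1, led in Tfh-like in cecum and in Rorgt gdT in tumor, not in a PD1+ label. Per kb of window the T cell list summed to 4.89 FPM in cecum and 4.60 in the tumor, against at most 0.586 over all labelled cells for the B cell, myeloid and epithelial lists, of which no gene was at 0. The B cell list was highest in Rorgt gdT, at 1.16 and 1.32 FPM per kb, and its part in the results of that label was not tested.

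Chemokine receptors are membrane proteins that couple to inhibitory G proteins and steer cells along gradients of small secreted ligands. T cells change the set they carry as they leave lymphoid organs and take on an effector fate. CXCR3 follows interferon-induced ligands, CXCR4 follows CXCL12 and holds cells in marrow and lymphoid tissue, CCR4 and CCR8 mark type 2 and regulatory cells, CCR6 marks type 17 cells, CCR10 is known from skin homing and from IgA plasma cells, and GPR15 brings T cells to the large intestine. An accessible locus is not the same measure as RNA or surface protein, which were not analysed here.

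The spans of the 7 genes lie on 6 chromosomes of GRCm38.p6 (mm10), at chrX:101731535-101734147 for Cxcr3, chr1:128588199-128592299 for Cxcr4, chr9:114490316-114505476 for Ccr4, chr17:8236041-8258519 for Ccr6, chr9:120092133-120094906 for Ccr8, chr11:101172998-101175443 for Ccr10 and chr16:58716643-58718872 for Gpr15. No other gene lay in the windows of Cxcr3, Cxcr4, Ccr4, Ccr8 and Gpr15. The Ccr6 window held Gm33799 and Gm8465, and the Ccr10 window held Plekhh3 and Cntnap1, so that Ccr10 values cannot be told apart from those of its neighbours. Per kb of window, Ccr10 was the most open of the 7 with 6.58 FPM in cecum and 5.67 in the tumor, and Ccr6 the least open with 0.757 and 0.905. The median of all genes was 0.666 and 0.694, so each member stood above it on this scale.

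Promoter sequences from RefSeq (GRCm38.p6, 250 bases before to 50 after the start, given in the direction of the gene) were found for Cxcr3, Cxcr4, Ccr4, Ccr6, Ccr8 and Gpr15, with 2 starts for Ccr6. Those of Ccr4, Ccr6 and Ccr8 are shown because the comparison of labels turns mostly on these 3 genes. Capitals mark every match, on either strand, to 6 motifs. They were AGGTCA for nuclear receptors, then AGATAA for GATA factors, then AGGTGTGA for T-box factors, then CTTTGA for TCF and LEF factors, then CACGTG for E-box factors and lastly TGACTCA for AP-1.
Ccr4 promoter, chr9:114496495-114496794, minus strand: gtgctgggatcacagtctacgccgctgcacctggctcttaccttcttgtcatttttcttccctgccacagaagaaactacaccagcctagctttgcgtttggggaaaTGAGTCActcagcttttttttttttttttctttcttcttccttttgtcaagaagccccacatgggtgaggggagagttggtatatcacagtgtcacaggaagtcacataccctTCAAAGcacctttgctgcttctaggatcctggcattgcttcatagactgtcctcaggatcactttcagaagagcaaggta
Ccr6 promoter 1, chr17:8235793-8236092, plus strand: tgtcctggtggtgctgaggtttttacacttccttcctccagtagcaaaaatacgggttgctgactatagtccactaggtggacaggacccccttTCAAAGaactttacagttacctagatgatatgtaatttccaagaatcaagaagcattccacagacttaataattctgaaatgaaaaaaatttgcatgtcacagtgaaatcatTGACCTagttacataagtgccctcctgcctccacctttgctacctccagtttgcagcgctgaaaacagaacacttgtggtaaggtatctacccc
Ccr6 promoter 2, chr17:8242276-8242575, plus strand: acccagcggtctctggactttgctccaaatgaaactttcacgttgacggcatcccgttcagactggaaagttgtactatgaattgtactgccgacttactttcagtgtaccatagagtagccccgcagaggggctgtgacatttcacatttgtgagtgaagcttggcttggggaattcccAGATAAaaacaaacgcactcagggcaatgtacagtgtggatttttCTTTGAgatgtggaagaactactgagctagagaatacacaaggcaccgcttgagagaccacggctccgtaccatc
Ccr8 promoter, chr9:120091883-120092182, plus strand: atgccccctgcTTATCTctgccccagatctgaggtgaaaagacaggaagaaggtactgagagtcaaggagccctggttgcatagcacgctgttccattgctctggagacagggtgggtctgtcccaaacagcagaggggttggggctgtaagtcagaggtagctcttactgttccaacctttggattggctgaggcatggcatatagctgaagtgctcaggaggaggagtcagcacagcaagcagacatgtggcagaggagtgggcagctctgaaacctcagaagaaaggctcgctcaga
No matches overlapped. Counted from base 1 at the 5′ end, the Ccr4 promoter held an AP-1 match at bases 108 to 114, the first Ccr6 promoter an AGGTCA match at bases 207 to 212, and the Ccr8 promoter a GATA match at bases 12 to 17. The second Ccr6 promoter also held a GATA match, at bases 181 to 186. CTTTGA matched at bases 221 to 226 of the Ccr4 promoter, 95 to 100 of the first Ccr6 promoter and 226 to 231 of the second. Among 32851 promoters of 300 bases, 16.3% held AGGTCA, 11.2% AGATAA, 1.27% AGGTGTGA, 16.0% CTTTGA, 7.15% CACGTG and 5.2% TGACTCA. The promoters of Cxcr3, Cxcr4 and Gpr15 held none of the 6 motifs, which says only that these letters are not in these windows.

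Ccr6 varied most between labels and Ccr10 least. Across the 16 larger labels the highest level was 38.4 times the lowest for Ccr6, 14.4 times for Ccr4, 12.3 times for Ccr8, 11.2 times for Gpr15, 9.98 times for Cxcr3, 3.55 times for Cxcr4 and 1.84 times for Ccr10 in the cecum. In the tumor these ratios were 27.4, 9.66, 9.49, 8.96, 21.2, 2.65 and 2.06. Extremes of 16 values are widened by counting error, most where counts are low, so the order of the ratios is a description.

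**Figure D1:**
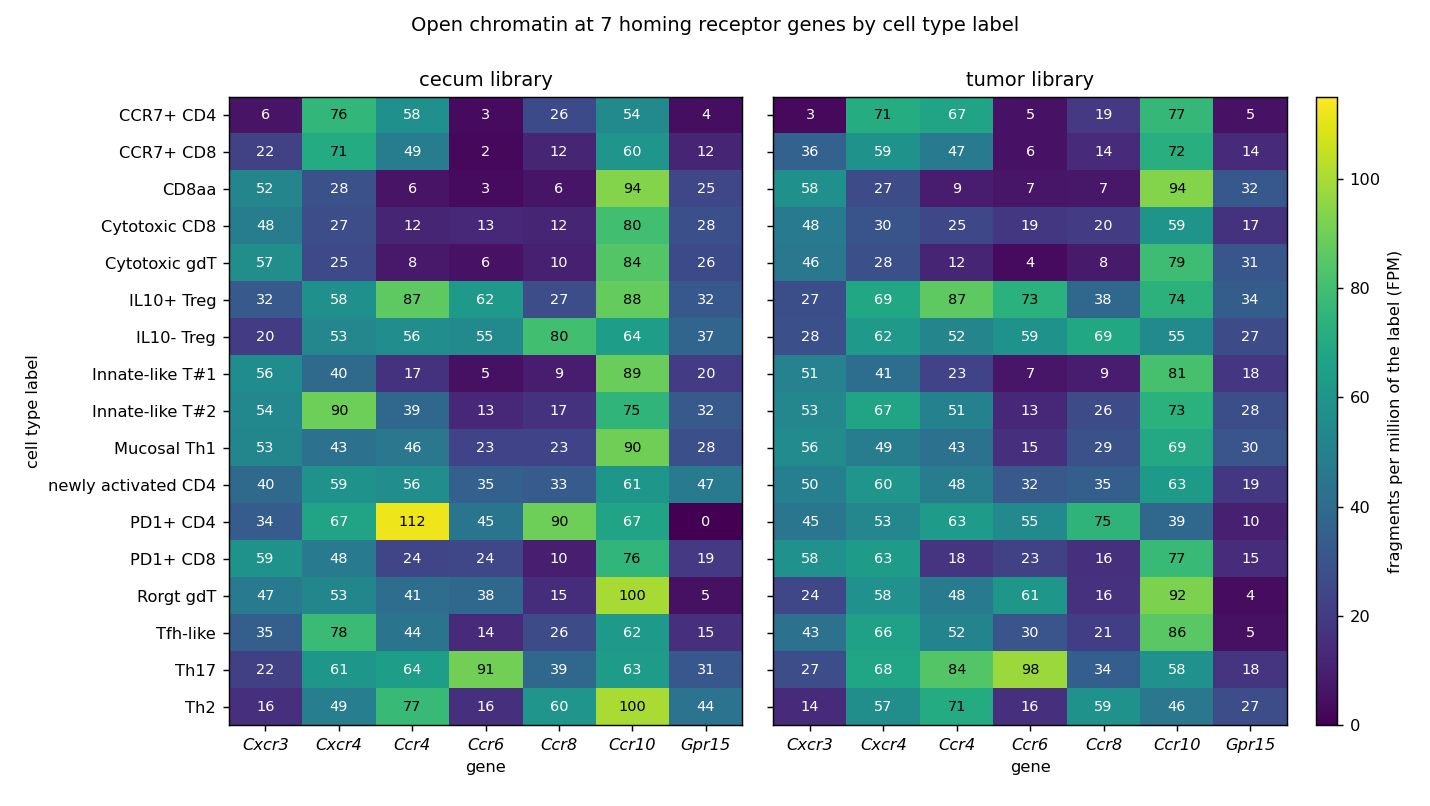
Level of each gene (columns) in each of the 17 labels (rows), in FPM printed in the cell and given by color, with the cecum library on the left and the tumor library on the right. Ccr6 is brightest in Th17 in both libraries (90.7 and 97.9 FPM), Ccr8 is bright in IL10- Treg (80.0 and 68.6 FPM), and Ccr10 is bright throughout. The cecum values of PD1+ CD4 rest on 14 cells.

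The leading label was the same in both libraries for 3 of the 7 genes, Cxcr3 (PD1+ CD8), Ccr6 (Th17) and Ccr8 (PD1+ CD4), against 22.6% of all genes. Among labels with at least 50 cells in each library it was the same for 4 (Cxcr3, Ccr4, Ccr6 and Ccr8), against 26% of all genes. A leading label at least 2-fold above the median label in both libraries was found for Ccr6 and Ccr8, 2 of 7 against 18.3% of all genes, and against 17.1% where only the larger labels were used. With so few members these shares are read as a description. Counting within the gene span alone, without the flanks, raised the number past 2-fold to 4 and lowered the number with the same leading label to 1.

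Across the 16 larger labels the cecum and tumor levels, as log2(FPM + 1), followed each other with Pearson's r between 0.829 (Gpr15) and 0.955 (Ccr4) for 6 genes, and with 0.125 for Ccr10. The median gene had 0.427. These points differ in depth between labels and share it within a library, and no p is given.

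Cxcr3, the receptor of type 1 effector cells, was open at a like level in most CD8, gamma-delta and Th1 labels and was lower in CCR7+ CD4, Th2, Th17 and both Treg labels. CCR7+ CD8 in the cecum (22.0 FPM) and Rorgt gdT in the tumor (24.5) were also low. In the cecum it ranged from 5.87 FPM in CCR7+ CD4 (7 fragments) over a median label of 43.5 to 58.6 in PD1+ CD8 (95% interval 50.9 to 67.0, 211 fragments). In the tumor it ranged from 2.74 in CCR7+ CD4 (2 fragments) over 44.4 to 58.0 in PD1+ CD8 (53.2 to 63.2, 531 fragments). The top of the order was flat, and 8 of the other larger labels in cecum and 5 in tumor had an interval of their ratio to PD1+ CD8 that reached 0.

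The labels below the others were more distinct than those above. Both Treg labels together stood at 27.9 FPM in the cecum, against 38.6 in the other CD4 type labels taken as a pool. In the tumor they stood at 27.8 against 41.0. The log2 ratios were -0.47 (-0.70 to -0.23) and -0.56 (-0.79 to -0.34). Single labels did not all follow. In each library CCR7+ CD4 and Th2 lay below both Treg labels, and Th17 (21.8 and 27.4 FPM) lay below IL10+ Treg (32.05 and 27.5). CCR7+ CD4 cells had a log2 ratio of -2.95 (-4.27 to -1.90) to the pooled cells of all other labels in cecum and of -4.06 (-7.11 to -2.21) in the tumor, where it rests on 2 fragments. Th2 held 9 and 6 fragments, at 15.8 and 13.7 FPM.

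Along the Cxcr3 locus the 500-bp tile with the most fragments was chrX:101737001-101737500, 3.10 kb before the start, with 579 cecum and 793 tumor fragments, 29.7% and 28.2% of the window. It was highest in Innate-like T#1, at 19.6 and 18.6 FPM. The tile in which PD1+ CD8 exceeded the other cells most was chrX:101735001-101735500, 1.1 kb before the start, with 5.28 against 2.23 FPM in cecum and 5.36 against 2.64 in the tumor, where Cytotoxic CD8 was at 5.59. Neither tile overlapped another gene.

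Cxcr4, the CXCL12 receptor, was open in every label and varied less. In the cecum it ran from 25.3 FPM in Cytotoxic gdT over a median label of 53.0 to 89.6 in Innate-like T#2 (72.4 to 109.5, 95 fragments). In the tumor it ran from 26.9 in CD8aa over 59.3 to 71.2 in CCR7+ CD4 (53.2 to 93.4, 52 fragments), and 11 of the other larger labels had an interval of the ratio to the leading label that reached 0. The low end was the same set in both libraries, with CD8aa at 28.3 and 26.9 FPM, Cytotoxic CD8 at 27.2 and 29.8, and Cytotoxic gdT at 25.3 and 28.2.

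Closely named labels differed at Cxcr4. Innate-like T#2 exceeded Innate-like T#1 by a log2 ratio of 1.17 (0.82 to 1.5) in cecum and 0.69 (0.45 to 0.93) in the tumor. PD1+ CD8 exceeded Cytotoxic CD8 by 0.81 (0.44 to 1.2) and 1.08 (0.79 to 1.39), and Rorgt gdT exceeded Cytotoxic gdT by 1.06 (0.63 to 1.5) and 1.05 (0.68 to 1.43). CD8aa was at 28.3 and 26.9 FPM, beside 27.2 and 29.8 in Cytotoxic CD8. The tile over the Cxcr4 start, chr1:128592001-128592500, carried 829 and 1192 fragments and was the fullest of the locus. A distal tile 10.95 kb before the start, chr1:128603001-128603500, had 5.66 FPM in Innate-like T#2 against 0.606 in all other cells of the cecum and 2.99 against 0.643 in the tumor, from only 6 and 9 fragments of that label. In the tumor the tile was higher in CCR7+ CD8, at 10.1 FPM.

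Ccr4, the receptor of CCL17 and CCL22, had its highest levels in CD4 type labels. It stood at 62.4 FPM over the 9 CD4 type labels against 19.3 over the 4 CD8 type labels in the cecum, and at 62.3 against 19.1 in the tumor, log2 ratios of 1.69 (1.48 to 1.92) and 1.71 (1.53 to 1.89). Its level in the larger labels ran from 6.03 in CD8aa over a median of 44.9 to 86.7 in IL10+ Treg (79.2 to 94.7) in the cecum, and from 8.96 in CD8aa over 48.2 to 86.5 in IL10+ Treg (75.8 to 98.3) in the tumor. Th2, at 77.4 FPM in the cecum, and Th17, at 84.2 in the tumor, came next and were not clear of IL10+ Treg. Outside the CD4 type labels, Innate-like T#2 (38.7 and 50.7 FPM) and Rorgt gdT (41.2 and 48.0) lay near Mucosal Th1 (45.7 and 43.2). The 14 PD1+ CD4 cells of the cecum gave 112.2 FPM from 10 fragments (53.8 to 206.3), and the 616 of the tumor 63.3 from 389.

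Ccr4 was also accessible in both CCR7+ labels, at 57.8 and 67.1 FPM in CCR7+ CD4 and 48.8 and 47.3 in CCR7+ CD8. The log2 ratio of CCR7+ CD4 to the pooled cells of all other labels was 0.61 (0.24 to 0.96) in cecum and 0.84 (0.40 to 1.24) in the tumor. The promoter printed above lies within the Ccr4 span, and the fullest tile, chr9:114496501-114497000, overlaps it, with 479 and 571 fragments. At this promoter CD8aa held 1 fragment (0.464 FPM) and Cytotoxic gdT 1 (0.332 FPM) in the cecum, against 22.2 FPM from 127 fragments in IL10+ Treg and 23.5 FPM from 28 in CCR7+ CD4. In the tumor it gave 1.45 FPM in CD8aa, 1.19 in Cytotoxic gdT, 15.8 in IL10+ Treg and 23.3 in CCR7+ CD4. The tile with the largest ratio of IL10+ Treg over the other cells lay 24.1 kb past the end of Ccr4, chr9:114466001-114466500, inside the span of Glb1, at 8.76 against 0.575 FPM in cecum and 6.23 against 0.404 in the tumor. Which gene this tile acts on was not tested.

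Ccr8, the receptor of CCL1, was the most open in IL10- Treg among the larger labels. IL10- Treg stood at 80.0 FPM in the cecum (70.2 to 90.8, 240 fragments) and 68.6 in the tumor (62.0 to 75.6, 398 fragments), with median labels of 20.1 and 20.7. Th2 followed with 59.8 (41.4 to 83.5) and 59.2 (38.7 to 86.8) and was the sole larger label whose ratio to IL10- Treg had an interval that reached 0 in either library. The lowest label was CD8aa with 6.50 and 7.23 FPM. PD1+ CD4 reached 74.7 FPM in the tumor (68.0 to 81.9, 459 fragments) and 89.8 in the cecum, the latter from 8 fragments in 14 cells. The tumor cells of this label were also the deepest, with a median of 9642 fragments per cell, and the part of depth in the value was not tested.

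The fullest tile of the Ccr8 window was also the tile in which IL10- Treg stood out most, chr9:120091001-120091500, 0.883 kb before the start. It held 85 of 245 cecum and 149 of 493 tumor fragments in IL10- Treg, at 28.3 FPM against 3.90 in all other cells and 25.7 against 6.11, log2 ratios of 2.86 (2.46 to 3.25) and 2.07 (1.78 to 2.35). The promoter printed above gave 16.7 FPM in cecum and 17.9 in the tumor in IL10- Treg from 50 and 104 fragments, 22.5 in the PD1+ CD4 cells of the tumor from 138, 6.13 and 6.60 in IL10+ Treg, and 0 and 3 fragments in CD8aa. Th2 had 12.3 and 20.5 FPM there from 7 and 9 fragments, in the tumor above IL10- Treg but with an interval (9.38 to 38.9) that held its value.

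Not every tile near Ccr8 followed this order. A tile 9.38 kb before the start, chr9:120082501-120083000, chosen after its values were seen, was led among the larger labels by newly activated CD4 with 30.5 FPM in cecum and 24.7 in the tumor, and reached 27.5 in the PD1+ CD4 cells of the tumor. IL10- Treg had only 4.67 and 9.13 FPM there. It stood at 10.3 and 13.8 FPM in Cytotoxic CD8, close to the 10.03 and 13 of all other cells. At the promoter Cytotoxic CD8 gave 1.18 and 2.93 FPM, against 3.57 and 6.18 over all labelled cells. The tile with the most fragments within 25 kb, chr9:120110501-120111000, overlapped Slc25a38.

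**Figure D2:**
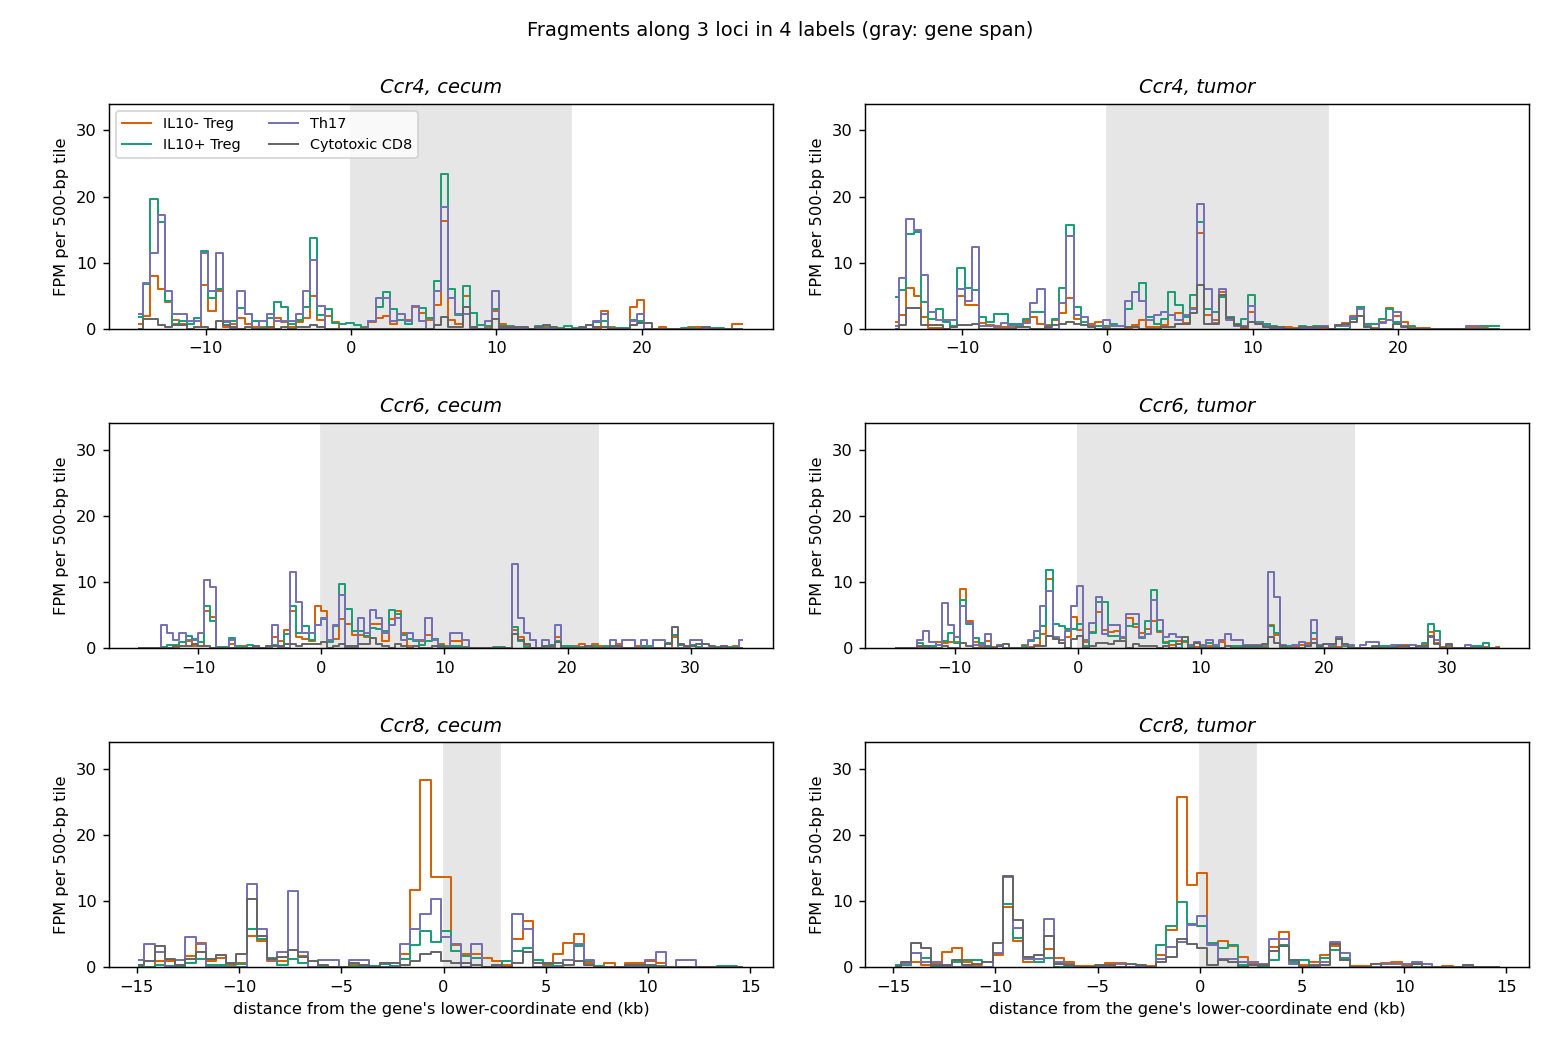
FPM in 500-bp tiles along Ccr4, Ccr6 and Ccr8 against the distance in kb from the gene's lower-coordinate end, with cecum on the left, tumor on the right, 1 line per label and the gene span in gray, drawn from 15 kb below the span to 12 kb above it. At Ccr8 the IL10- Treg line is highest, within the stretch drawn, at 28.3 FPM in cecum and 25.7 in the tumor, less than 1 kb before the start. At Ccr6 the Th17 line has a peak 15.7 kb inside the gene, at 12.6 and 11.5 FPM.

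Ccr6, the CCL20 receptor, varied most between labels. Th17 led with 90.7 FPM in the cecum (71.8 to 113.1, 79 fragments) and 97.9 in the tumor (85.6 to 111.4, 229 fragments), and no other larger label had a ratio to it whose interval reached 0. The median labels were at 15.0 and 17.3 FPM, which put the log2 ratio of the leading over the median label at 2.60 and 2.50, above that of 97.8% and 98.1% of all genes. IL10+ Treg (62.4 and 73.3), IL10- Treg (54.6 and 58.6) and Rorgt gdT (38.4 and 60.7) came below it, with newly activated CD4 at 35.1 and 32.0. PD1+ CD4 stood at 54.5 FPM in the tumor (48.9 to 60.7, 335 fragments). The lowest labels were CCR7+ CD8 with 2.36 FPM in cecum and Cytotoxic gdT with 3.58 in the tumor, and CCR7+ CD4 held 4 fragments in each library.

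Within lineages Ccr6 parted the type 17 label from the others. Th17 exceeded Th2 by a log2 ratio of 2.52 (1.52 to 3.70) in cecum and 2.62 (1.55 to 3.95) in the tumor, and Rorgt gdT exceeded Cytotoxic gdT by 2.76 (1.999 to 3.61) and 4.08 (3.31 to 4.96). The 2 promoters held few fragments, 61 and 50 in cecum and 100 and 95 in tumor. Of those, the labels CCR7+ CD4, CCR7+ CD8 and Cytotoxic gdT held 0 at both promoters in both libraries, while Th17 gave 8.55 and 6.41 FPM in the tumor from 20 and 15 fragments. In the cecum Th17 held 3 fragments at each promoter (3.44 FPM), too few to place it among the labels.

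Fragments at Ccr6 were spread along the window. Its fullest tile, chr17:8233501-8234000, lay 2.29 kb before the start, with 86 and 236 fragments, 7.96% and 12.9% of the window. Among the larger labels it was highest in Th17 in the cecum, at 11.5 FPM. In the tumor it was highest in IL10+ Treg, at 11.7 FPM against 8.55 in Th17. The tile that set Th17 apart most by the chosen rule, chr17:8255001-8255500, lies within the gene and had only 3 and 10 Th17 fragments. A stronger tile, chosen after its values were seen, was chr17:8251501-8252000, 15.7 kb inside the gene, with 12.6 FPM in Th17 against 2.02 in all other cells of the cecum and 11.5 against 2.46 in the tumor. Among the larger labels Rorgt gdT came next there with 6.47 and 7.06 FPM. The tile with the most fragments, chr17:8283501-8284000, at the edge of the 25 kb flank, overlapped Mpc1 and did not set Th17 apart, with 64.3 against 63.3 FPM in the cecum.

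**Figure D3:**
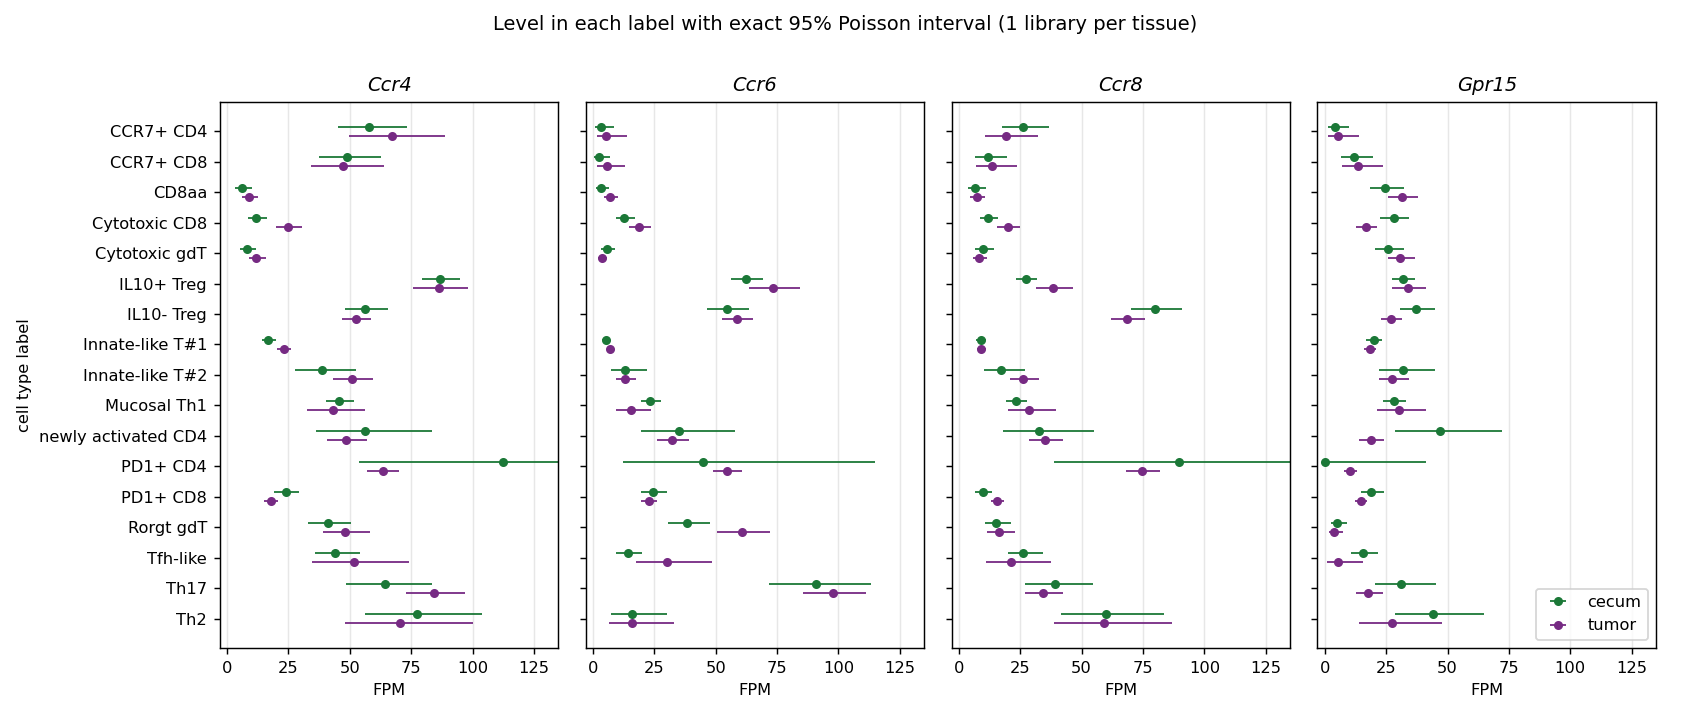
FPM of Ccr4, Ccr6, Ccr8 and Gpr15 (panels) in each label (rows), with points for the cecum (green) and tumor (purple) library and bars for the exact 95% Poisson interval, cut at the right axis limit for the 14 PD1+ CD4 cells of the cecum. Most green and purple bars of a row overlap, and newly activated CD4 at Gpr15 (46.9 and 18.7 FPM) is among the rows where the points lie far apart.

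Gpr15, the receptor that brings T cells to the large intestine, was low in CCR7+ CD4 and Rorgt gdT in both libraries and, from 3 fragments, in Tfh-like in the tumor (5.35 FPM). In the cecum the larger labels ran from 4.19 FPM in CCR7+ CD4 over a median of 27.0 to 46.9 in newly activated CD4 (28.6 to 72.4, 20 fragments). In the tumor they ran from 3.76 in Rorgt gdT over 18.6 to 33.7 in IL10+ Treg (27.2 to 41.4, 92 fragments). No fragment was found in the 14 PD1+ CD4 cells of the cecum, where the exact interval reaches 41.4 FPM and 3 fragments would be 33.7 FPM, and the tumor cells of this label had 10.3 (7.88 to 13.1).

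The gamma-delta labels were far apart at Gpr15. Rorgt gdT held 11 fragments in cecum and 8 in tumor, at 5.09 and 3.76 FPM, against 25.9 and 30.8 FPM in Cytotoxic gdT, log2 ratios of -2.35 (-3.41 to -1.43) and -3.03 (-4.27 to -2.01). That is the opposite direction to Ccr6, which was higher in Rorgt gdT. Both Treg labels together exceeded the other CD4 type labels, taken as a pool, by 0.47 (0.22 to 0.71) in cecum and 0.95 (0.68 to 1.22) in the tumor. Single labels did not all follow. In the cecum newly activated CD4 (46.9 FPM) and Th2 (44.0) lay above IL10+ Treg (31.9) and IL10- Treg (37.3). In the tumor Mucosal Th1 (30.1) and Th2 (27.3) lay above IL10- Treg (26.9). The tumor pool also holds the 616 PD1+ CD4 cells, at 10.3 FPM, and the cecum pool only 14. The fullest tile of the window, chr16:58715001-58715500, lay 1.39 kb past the end and was highest in IL10+ Treg, at 9.81 and 9.90 FPM. The fullest tile within 25 kb, chr16:58727501-58728000, overlapped Cldnd1. The tile that set Th2, the label with the highest mean level over the libraries, apart most was chr16:58725501-58726000, with 6 fragments or fewer of that label in each library. It lies 6.88 kb before the Gpr15 start and 2.16 kb from Cldnd1, and the interval of its tumor ratio reached 0. Th2 held 25 and 12 fragments over the Gpr15 window, but 1 and 0 in its fullest tile and 0 at the promoter in both libraries.

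Ccr10, known from skin homing, spanned a narrow range. It ran from 54.5 FPM in CCR7+ CD4 over 77.8 to 100.2 in Th2 (75.9 to 129.8) in the cecum, and from 45.6 in Th2 (27.8 to 70.4) over 73.5 to 93.6 in CD8aa (83.7 to 104.4) in the tumor. Thus Th2 led the cecum order and was the lowest of the larger labels in the tumor, where PD1+ CD4 was lower still at 38.9. Of the other larger labels, 9 in cecum and 4 in tumor had a ratio to the leading label whose interval reached 0. The log2 ratio of CD4 type over CD8 type labels was -0.0055 (-0.13 to 0.12) in cecum and -0.44 (-0.55 to -0.33) in the tumor. The fullest tile, chr11:101171001-101171500, with 1221 and 1390 fragments, lay over Plekhh3, and the tile that set Rorgt gdT, the label with the highest mean level, apart most, chr11:101172001-101172500, lay 0.748 kb from the Ccr10 span on the side of Plekhh3. The Ccr10 values are those of a shared stretch of chromatin.

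In all, neighbours in the order of labels were seldom clear of each other. Of 16 neighbouring pairs per gene and library, 0 to 4 had an interval of their ratio that left out 0, with the most for Ccr4 in the tumor and none for Cxcr3, Ccr8 and Ccr10 in either library. Neighbours in a sorted order lie close by construction, so this count does not measure how specific a gene is to a label. At Ccr8, IL10- Treg was clear of every other larger label but Th2. The levels are read in tiers.

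Genes whose level followed a member over 32 pairs of label and library, with log2(FPM + 1) centred within each library, were named by the highest Pearson's r outside the member's own window. These points share depth and cell mix, and no shared function or control is read from them. For Cxcr3 they were Ifng (0.926), Gfod1 (0.869) and Ybx3 (0.851). For Cxcr4 they were Arhgef10 (0.910), Lhx2 (0.899) and Smox (0.857). For Ccr4 they were Tiam1 (0.919), Gpr25 (0.911) and Map3k5 (0.904). Ccr6 was followed by BC053393 (0.901), Abcc3 (0.897) and Eif3h (0.892), and Ccr8 by Tnfrsf4 (0.879), Pln (0.879) and Il1rl1 (0.875). Lower values were found for Ccr10, with Thbd (0.735), Klf9 (0.725) and Gm5174 (0.680), and for Gpr15, with Fam151a (0.805), Wfdc21 (0.751) and Cpox (0.748), a near neighbour on the same chromosome. Ifng encodes interferon gamma, and Tnfrsf4 and Il1rl1 encode OX40 and the IL-33 receptor.

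Among the members themselves, Ccr4 ran with Cxcr4 (r = 0.805 over the same 32 pairs) and with Ccr8 (0.78), and Ccr6 with Ccr8 (0.627). Lower values were found for Ccr4 with Ccr6 (0.547) and Cxcr4 with Ccr8 (0.527). Cxcr3 ran against Ccr4 (-0.55), Cxcr4 (-0.44) and Ccr8 (-0.43), and Ccr10 against Ccr8 (-0.52), Cxcr4 (-0.40) and Ccr4 (-0.40). Ccr10 and Gpr15 were followed by no other member above 0.363.

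The Treg subsets were then compared, as the study does, in each library apart. Over the gene windows IL10- Treg was higher than IL10+ Treg at Ccr8, and IL10+ Treg was higher at Ccr4, where the promoter intervals of the subsets overlapped. For Ccr8 the levels were 27.3 FPM in IL10+ Treg and 80.0 in IL10- Treg in cecum, and 38.5 and 68.6 in tumor, log2 ratios of -1.55 (-1.85 to -1.25) and -0.83 (-1.16 to -0.52). For Ccr4 they were 86.7 and 56.3 in cecum and 86.5 and 52.4 in the tumor, log2 ratios of 0.62 (0.37 to 0.88) and 0.72 (0.47 to 0.97).

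These were the members past 1.5-fold in both libraries, 1 of 7 higher in IL10+ Treg and 1 of 7 lower. Of the 14406 genes compared in this way, 0.875% were higher and 4.28% lower. The 2 intervals of Ccr8 do not overlap between the libraries, but whether its ratio differed between tissues was not tested. The Ccr4 ratio lies just past the fold and fell below it in at least 1 library under 4 of 8 alternatives. Among these 4 is the window within 1 kb of the gene ends, which leaves out the Ccr4 promoter printed above. The Ccr8 ratio stayed negative in both libraries under all 8, but fell short of 1.5-fold in the tumor within the gene span alone (-0.22) and with 25 kb of flank (-0.44).

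The other members differed less between the subsets. Ccr10 was at 0.45 (0.21 to 0.70) in cecum and 0.43 (0.17 to 0.69) in the tumor, and Ccr6 at 0.19 (-0.08 to 0.47) and 0.32 (0.06 to 0.58). Cxcr4 gave 0.12 (-0.16 to 0.40) and 0.14 (-0.12 to 0.40), and Gpr15 -0.23 (-0.58 to 0.13) and 0.33 (-0.06 to 0.71). Cxcr3 gave 0.68 (0.25 to 1.13) in cecum and -0.02 (-0.44 to 0.38) in the tumor, and the cecum value turned to -0.21 as a mean over cells, so no direction is read from it. The ratios of Cxcr4, Ccr6 and Gpr15 also changed sign in at least 1 library under an alternative.

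**Figure D4:**
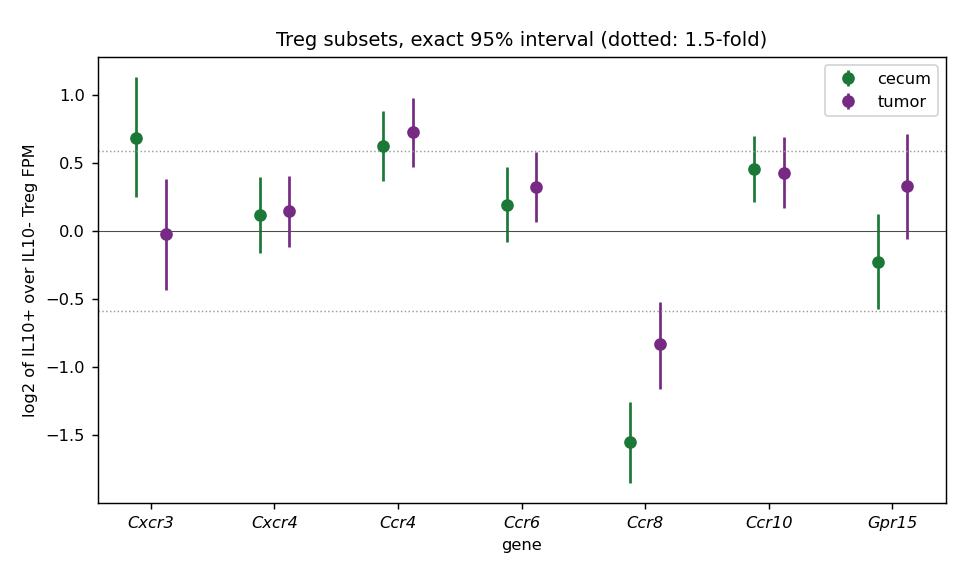
Log2 ratio of FPM in IL10+ Treg over IL10- Treg for each gene, with points for the cecum (green) and tumor (purple) library, bars for the exact 95% interval and dotted lines at 1.5-fold. Ccr8 lies below the lower dotted line in both libraries (-1.55 and -0.83) and Ccr4 above the upper one (0.62 and 0.72).

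Between tumor and cecum over all labelled cells, no member passed 1.5-fold in either direction, where 1.4% of all genes were higher and 0.173% lower. Ccr8 went from 21.6 to 28.2 FPM, a log2 ratio of 0.38 (0.27 to 0.50), and Ccr6 from 24.6 to 29.4, 0.26 (0.15 to 0.37). Gpr15 went from 24.3 to 19.9, -0.29 (-0.41 to -0.17), and Ccr10 from 81.8 to 70.5, -0.21 (-0.28 to -0.15). Cxcr4 stood at 48.0 and 51.3, 0.10 (0.02 to 0.18), Cxcr3 at 44.3 and 45.3, 0.03 (-0.05 to 0.12), and Ccr4 at 38.5 and 38.0, -0.02 (-0.11 to 0.07). The median of all genes was -0.0045. With the gene span alone Ccr8 passed the fold, at 0.70 (0.44 to 0.98).

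The mix of labels differed between the libraries. With the cecum label mix held fixed, the log2 ratio became 0.14 for Ccr8, 0.20 for Ccr6, -0.15 for Gpr15, -0.13 for Ccr10, 0.10 for Cxcr4, -0.05 for Cxcr3 and 0.10 for Ccr4. The PD1+ CD4 cells alone held 26.2% of the Ccr8 fragments of the tumor and 0.840% of those of the cecum, and without them the Ccr8 ratio was 0.10 (-0.02 to 0.23), an alternative chosen after the data were seen. Without them Ccr6 was at 0.12 (0.00 to 0.23) and Gpr15 at -0.22 (-0.34 to -0.10).

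Within labels, 112 of the 119 pairs of member and label held at least 20 fragments over both libraries. Of these, 5 were at least 1.5-fold higher in the tumor with an interval that left out 0, which is 4.46% against 2.28% of all gene and label pairs, and 5 were as much lower, against 1.56%. In 92 of the 112 the interval reached 0, and a pair is called more easily where counts are high, so the shares are read as a description.

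The higher pairs were in CD8, gamma-delta and follicular labels. In Cytotoxic CD8, Ccr4 went from 11.8 FPM in the cecum to 24.8 in the tumor (40 and 93 fragments), a log2 ratio of 1.07 (0.52 to 1.64), and Ccr8 from 11.8 to 19.97, 0.76 (0.19 to 1.35). This Ccr8 ratio was 1.34 (-0.22 to 3.16) with the gene span alone and 0.81 (-0.02 to 1.69) within 1 kb of the gene ends. With 25 kb of flank it was 0.18 (-0.03 to 0.39), and as a mean over cells 0.90 (0.33 to 1.5). In PD1+ CD8, Ccr8 went from 9.72 to 15.5, 0.68 (0.13 to 1.25). Ccr6 went from 38.4 to 60.7 FPM in Rorgt gdT, 0.66 (0.25 to 1.08), and from 14.1 to 30.3 in Tfh-like, 1.11 (0.16 to 2.01), the latter from 30 and 17 fragments. As a mean over cells the Tfh-like ratio turned to -0.27 (-1.22 to 0.63), and with 25 kb of flank it was 0.053. As a mean over cells the Ccr6 ratio in Rorgt gdT was 0.21 (-0.20 to 0.62) and the Ccr8 ratio in PD1+ CD8 0.53 (-0.02 to 1.1). No Ccr4 ratio is given for Cytotoxic CD8 within 1 kb of the gene ends, where the cecum cells held 0 fragments. That window leaves out the Ccr4 promoter printed above, where Cytotoxic CD8 held 6 fragments in cecum and 24 in tumor.

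The lower pairs were mostly at Gpr15. It went from 46.9 to 18.7 FPM in newly activated CD4, -1.33 (-2.09 to -0.51), from 28.0 to 16.8 in Cytotoxic CD8, -0.74 (-1.22 to -0.27), and from 31.0 to 17.5 in Th17, -0.82 (-1.56 to -0.07). Without cells above 3 times the median fragment number the value in newly activated CD4 was -0.46 (-1.61 to 0.93), and with 25 kb of flank it was -0.25 (-0.56 to 0.07). With the gene span alone the Gpr15 ratio was -0.29 (-1.24 to 0.66) in Cytotoxic CD8 and -0.10 (-1.90 to 2.02) in Th17, and with 25 kb of flank -0.47 (-0.62 to -0.31) and -0.27 (-0.51 to -0.03), short of the fold. Cxcr3 went from 47.2 to 24.5 FPM in Rorgt gdT, -0.95 (-1.46 to -0.45), where Ccr6 was higher, but with the gene span alone the ratio turned to 0.25 (-0.73 to 1.24). Ccr10 in Th2 went from 100.2 to 45.6, -1.14 (-1.95 to -0.38), in the smallest label of the tumor library with 58 cells. The Ccr10 ratio in Th2 was -0.43 (-1.89 to 0.92) with the gene span alone and -0.63 (-1.29 to 0.008) with 25 kb of flank. Within 1 kb of the gene ends it was -1.21 (-2.58 to -0.009).

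In the Treg labels no member passed the fold between tissues. At Ccr8 IL10+ Treg had 27.3 and 38.5 FPM and IL10- Treg 80.0 and 68.6, and at Ccr4 IL10+ Treg had 86.7 and 86.5. Of the 10 called pairs, 2 remained with the gene span alone, 2 within 1 kb of the gene ends, 3 with 25 kb of flank and 7 as a mean over cells.

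**Figure D5:**
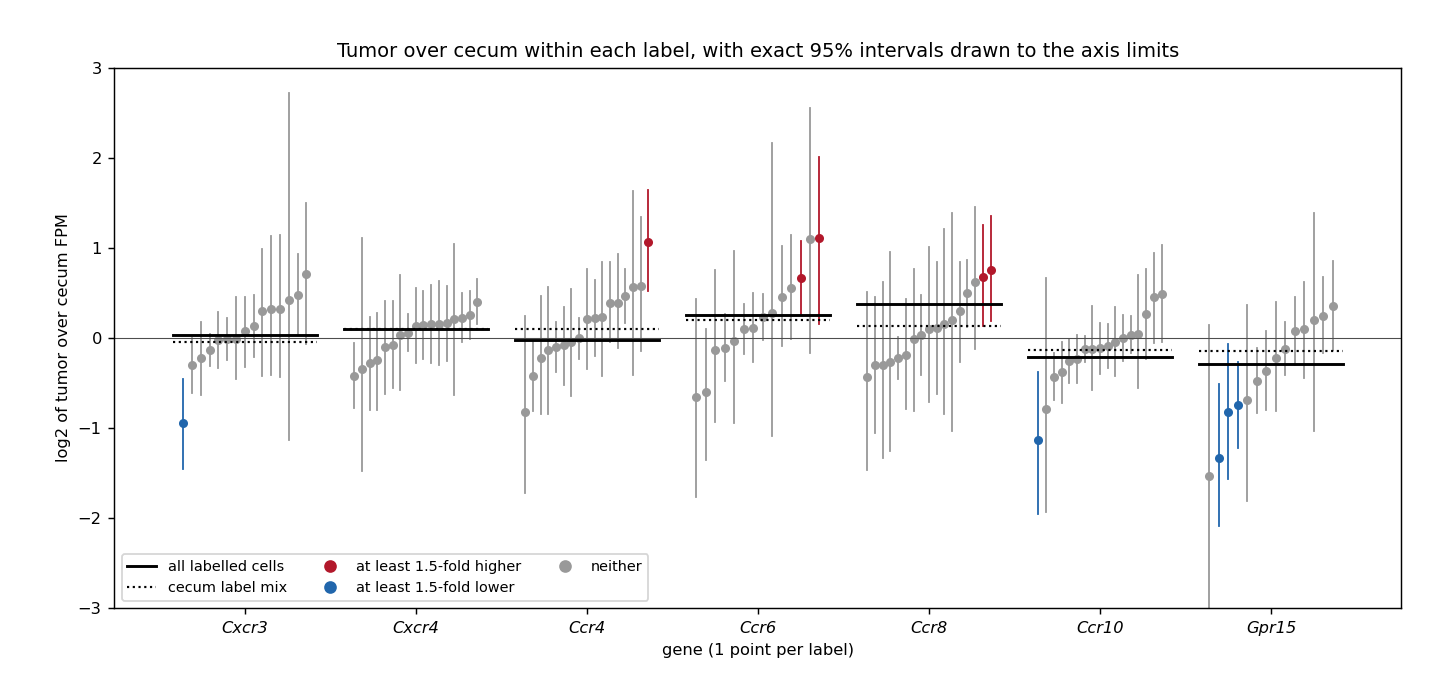
Log2 ratio of tumor over cecum FPM for each gene (columns), with 1 point per label that held at least 20 fragments and none at 0, sorted by value, and bars for the exact 95% interval. Red points are at least 1.5-fold higher and blue points at least 1.5-fold lower with an interval that leaves out 0, solid lines give all labelled cells and dotted lines the same with the cecum label mix. Most points are gray, and 3 of the 5 blue points are at Gpr15.

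Genes around the receptors were counted in lists. Of 11 ligand genes of the members, 10 were found and 9 passed the minimum, of which 0 were at least 1.5-fold higher in the tumor and 1 was lower, Ccl20, the CCR6 ligand, which went from 4.98 to 2.82 FPM (log2 -0.82, -1.12 to -0.53), beside 1.4% of all genes higher and 0.173% lower. The median of the list was 0.17. Ccl20 was highest in IL10+ Treg in both libraries, with 29.6 and 21.6 FPM, and was higher there than in IL10- Treg past 1.5-fold in both libraries. Ccl1 (-1.60 and -0.89) and Ccl17 (-1.79 and -0.74), ligands of CCR8 and CCR4, were lower in IL10+ Treg past that fold, where 0.875% of the 14406 genes compared were higher and 4.28% lower. Of 16 other receptors, 1 was higher, Cx3cr1, the fractalkine receptor, from 40.0 to 61.9 FPM (0.63, 0.55 to 0.71), 0 were lower, and the median was 0.03. Of 9 signalling genes, 9 adhesion genes and 11 regulators, 0 passed the fold in either direction, with medians of -0.03, 0.08 and -0.05. Between the Treg subsets, Ccr2, the receptor of monocyte attractants, was also past the fold in both libraries and higher in IL10+ Treg, with log2 ratios of 0.69 and 0.97.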

How the data were processed

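T cells from tumor and cecum were profiled by single-cell multiome, with 1 ATAC library per tissue. The authors aligned the reads with Cell Ranger ARC 2.0.0 to mm10 and deposited fragment lists, in which each line is a unique fragment with the count of its read pairs, and a table of the cell labels they kept after their own filters. Doublets were not called here. Fragments with an end in the gene span with 5 kb on each side were counted once per gene and label with Python 3.11.15, numpy 2.4.6, pandas 2.3.3 and numba 0.67.0, read pair counts were not used, and FPM divides by all fragments of the label. Intervals are exact Poisson for levels and exact conditional (Clopper-Pearson) for ratios (scipy 1.17.1). They cover counting error only, and a floor of 3 fragments stands for 0. For means over cells the interval of the pooled counts was moved to the mean, so it is approximate there. The counting was checked on simulated data. Pairs needed 20 fragments over both libraries.

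The members and lists were chosen with earlier results of these data known. Text names the 7 members, at most 3 list genes past the fold per list, the 3 genes of highest r per member, and per member the tile with most fragments and the tile (at least 20 fragments in each library) with the largest ratio of the leading label. A further tile each of Ccr8 and Ccr6 was chosen after its values were seen. Alternatives changed the window, cell filters, scaling and label minimum. The RNA data were not used here, and some items are not reported here.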

Additional observations from a re-analysis of the deposited data

Results flagged for a closer look

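The tumor over cecum log2 ratio went opposite ways in different labels for 3 genes, with an interval that left out 0 in each label named. For Cxcr3 it was 0.481 in IL10- Treg and -0.947 in Rorgt gdT. For Cxcr4 it was 0.401 in PD1+ CD8 and -0.419 in Innate-like T#2. For Ccr4 it was 1.07 in Cytotoxic CD8 and 0.462 in Innate-like T#1, against -0.422 in PD1+ CD8. The difference between labels was not tested in any of these, since each tissue has 1 library.

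Barcodes without a label, which enter none of the comparisons, also held fragments at every member, above what a count of 0 allows. In the cecum and the tumor they gave 30 and 37.6 FPM at Cxcr3, 41.8 and 46.1 at Cxcr4, and 33.5 and 36.8 at Ccr4. Ccr6 had 21.8 and 33, and Ccr8 had 19.7 and 28.7. Ccr10 had 67.3 and 63.5, and Gpr15 had 19.8 and 14.7. What these barcodes are was not tested.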

How the results depend on the processing

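No paired analysis was possible because each tissue has 1 library, and no library could be left out. With the gene span alone, 1 member kept the same leading label in both libraries, 4 passed 2-fold over the median label, 3 pairs of member and label were higher and 3 lower in the tumor, 0 members were lower in IL10+ Treg, and the tumor over cecum log2 ratio was -0.20 for Ccr4, 0.14 for Ccr6 and 0.70 for Ccr8. Within 1 kb of the gene ends, the same leading label held for 1 member, 1 pair was higher and 3 lower, 0 members were higher in IL10+ Treg, and the ratio was 0.16 for Ccr4 and 0.51 for Ccr8. The Ccr4 promoter printed above lies outside that window. With 25 kb on each side, 2 pairs were higher and 1 lower, 0 members were lower in IL10+ Treg, and the ratio was -0.12 for Ccr4, 0.069 for Ccr6 and 0.14 for Ccr8. As a mean over cells, 8 pairs were higher and 13 lower, 0 members were higher in IL10+ Treg, the ratio was 0.060 for Ccr6 and 0.21 for Cxcr4, and the Treg ratio of Cxcr3 in the cecum turned to -0.21. Leaving out cells with more than 3 times the median of fragments, 8 pairs were higher and 0 members higher in IL10+ Treg, and scaling by fragments near gene ends also gave 0. Without PD1+ CD4 cells, chosen after seeing the data, the ratio was -0.12 for Ccr4, 0.12 for Ccr6, 0.10 for Ccr8 and -0.15 for Ccr10. The cause of these changes was not tested. Of the recomputed values, 198 stayed within the counting interval of the reported value, or within 1.5 times a reported count, and 52 moved past it, some with a change of sign where the reported interval held 0. The Treg ratio of Cxcr3 in the cecum was the 1 whose reported interval left out 0 and whose sign changed. Depth limits the labels with few fragments.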
